A study of Mus musculus with 8 samples.

Results

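The cytosolic ribosomal protein genes were taken as every row of the gene table whose symbol starts with Rpl or Rps and a digit, together with Rplp0, Rplp1, Rplp2 and Rpsa. Symbols that contain -ps (286 rows) and the ribosomal S6 kinases (symbols starting Rps6k, 10 rows) were left out. This rule gave 93 of 35199 genes, 55 with names of the large (60S) subunit and 38 with names of the small (40S) subunit. In the GENCODE M21 annotation of GRCm38, 86 of the 93 are protein coding and 7 are pseudogenes (Rpl32l, Rpl37rt, Rpl6l, Rps12l1, Rps3a2, Rps3a3 and Rps4l). The symbol rule also took Rps19bp1, a protein that binds RPS19 and is not itself part of the ribosome, and Rpl7l1, a relative of Rpl7. At least 1 count was present for 91 genes, and 88 passed the filter on low counts. The 5 that did not pass were Rpl10l, Rpl32l, Rpl39l, Rpl3l and Rpl6l.

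RNA was sequenced from live, EpCAM-high, ZSgreen-positive cells sorted from the jejunum of Dclk1-DTR-ZSgreen mice, with 3000 or 4000 cells per library. These mice carry a bacterial artificial chromosome in which a diphtheria toxin receptor and ZsGreen cassette sits in exon 2 of Dclk1, so ZSgreen marks cells with an active Dclk1 promoter; both groups carried it, and animals of both sexes, 8 to 10 weeks of age at the start, were used. Scopolamine, a nonselective antagonist of muscarinic acetylcholine receptors, was delivered for 7 days at 0.5 mg per kg per day from an osmotic pump in 4 mice, and sodium chloride was delivered in the same way in 4 sham mice. The comparison asks how blocking cholinergic input changes transcripts in tuft cells.

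Ribosomal proteins are made in near-equal numbers because each ribosome takes 1 copy of nearly every one of them. Their mRNAs are short and abundant, and most begin with a run of pyrimidines, the 5′ terminal oligopyrimidine (TOP) motif, through which growth signals acting via mTOR and LARP1 set their translation. Because the mRNAs are abundant, reverse transcription into the germline has left the mouse genome with very many processed copies of these genes, and such copies can be nearly identical to the intron-containing parent.

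Sham libraries held 25769940 to 41428916 counts and scopolamine libraries 14343362 to 20857433, so every sham library was deeper and depth cannot be told apart from treatment by group. Sham replicates 1 and 3 were made from 200 pg of RNA with 15 cycles of cDNA amplification, all other libraries from 1000 pg with 10 cycles. The labels give mouse identifiers of an M series (scopolamine replicates 1, 2 and 3 and sham replicate 1) and an N series (scopolamine replicate 4 and sham replicates 2, 3 and 4). All 30 tuft cell markers passed the filter on low counts, with a summed level of 41123 to 68620 CPM with scopolamine and 51565 to 59999 CPM in sham. Of these markers 25 had a log2 fold change below 0 (median -0.14, 2 of them at an unadjusted p under 0.05, where 2.66% of all genes were lower). Markers of enterocytes were also present, with 25 of 25 tested markers at a log2 fold change above 0 (median 1.57, 9 of them at an unadjusted p under 0.05, where 3.33% of all genes were higher) and summed levels of 4443 to 16368 CPM with scopolamine and 3107 to 9306 CPM in sham. Goblet and Paneth cell markers were above 0 for 15 of 16 (median 1.56, 3 higher at an unadjusted p under 0.05; 743 to 3646 CPM against 397 to 1483 CPM), enteroendocrine markers for 16 of 19 (median 0.86, 2 higher at that p; 498 to 1153 CPM against 187 to 1592 CPM) and intraepithelial lymphocyte markers for 10 of 12 (median 0.53, 0 at that p; 72.0 to 243 CPM against 63.7 to 290 CPM). Stem and dividing cell markers had a median of 0.033 over 20 genes (3 higher at an unadjusted p under 0.05; 486 to 907 CPM against 600.3 to 777 CPM). None of these lists held a gene with an adjusted p under 0.1 in edgeR. DESeq2 called 1 tuft marker lower, where it called 0.342% of all genes lower. It called 2 enterocyte, 1 enteroendocrine, 1 intraepithelial lymphocyte and 1 stem or dividing cell marker higher, where it called 1.01% of all genes higher. The part of these markers in the ribosomal protein values was not tested.

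Together the 93 genes took 3.07%, 3.10%, 1.97% and 2.73% of all counts in scopolamine replicates 1 to 4 and 3.11%, 2.79%, 3.02% and 3.32% in sham replicates 1 to 4. The 95% Wilson intervals of these shares are at most 0.0151 percentage points wide and cover counting error only. The mean share was 2.72 ± 0.52% with scopolamine and 3.06 ± 0.22% in sham (SD, n = 4 each). Scopolamine replicate 3 stood below all other libraries, and the remaining 7 libraries overlapped between the groups. The gap between the group means was -0.34 percentage points, and -0.096 without scopolamine replicate 3. Names of the large subunit took 1.69 ± 0.30% with scopolamine and 1.91 ± 0.15% in sham, and names of the small subunit 1.02 ± 0.23% and 1.15 ± 0.070%. In bulk RNA of sorted cells, fewer cells that express a gene and less of its RNA per cell cannot be told apart.

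Gene by gene, the displacement of scopolamine replicate 3 was shared by nearly the whole group. Of 88 tested genes, 77 had their lowest level of the 8 libraries in scopolamine replicate 3, and 57 had their highest in sham replicate 4. Relative to each gene's own mean over the 8 libraries (log2 CPM), the median deviation was 0.11, 0.037, -0.60 and -0.066 in scopolamine replicates 1 to 4 and 0.12, -0.070, 0.11 and 0.38 in sham replicates 1 to 4. In scopolamine replicate 3, 83 of 88 genes lay below their own mean. This library had the smallest total (14343362 counts) and the lowest share of mitochondrially encoded transcripts (4.64%; 5.04% to 6.17% in the other scopolamine libraries and 5.11% to 7.56% in sham), and was made from the same RNA input as the other scopolamine libraries. It also had the highest summed level of tuft cell markers of the 8 libraries (68620 CPM) and the lowest of stem and dividing cell markers (486 CPM). Its summed level of enterocyte markers (8370 CPM) lay within the range of the other libraries. Whether depth, RNA quality or the make-up of the sorted cells had a part in the displacement was not tested.

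**Figure D1:**
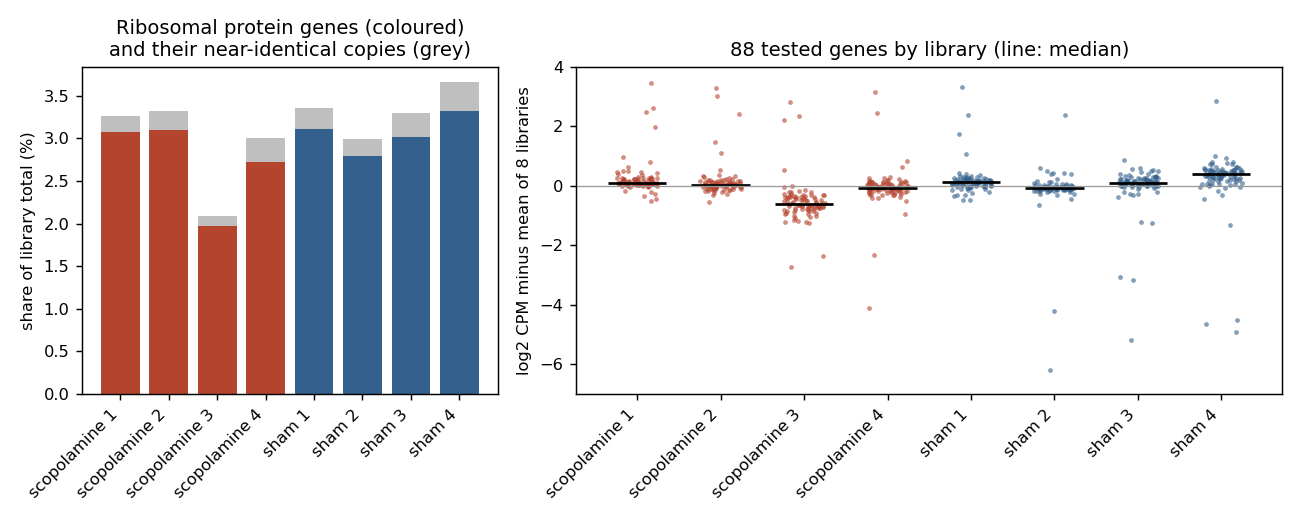
The left panel gives the share of each library's counts on the 93 ribosomal protein genes (red, scopolamine; blue, sham) and on their near-identical copies (grey), in percent. The right panel gives, for 88 genes, log2 CPM minus the gene's mean over 8 libraries, 1 point per gene, with the median as a line; the median is -0.60 in scopolamine replicate 3 and 0.38 in sham replicate 4, and lies between -0.070 and 0.12 in the other 6 libraries.

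No ribosomal protein gene passed the test between the groups. With edgeR's quasi-likelihood test and Benjamini-Hochberg adjustment over all 12849 genes tested, 0 of 88 had an adjusted p under 0.1, and 0% of all genes did (smallest adjusted p 0.439 over all genes and 0.812 over the ribosomal protein genes). The log2 fold change, scopolamine over sham, was below 0 for 80 of 88 genes, where 50.9% of all tested genes were below 0. Its median was -0.23 over the 88 genes and -0.011 over all genes tested, and it was -0.24 for large subunit names and -0.23 for small subunit names. An unadjusted p under 0.05 with a lower level was reached by 8 genes, where 2.66% of all genes did so, and with a higher level by 0 genes, where 3.33% of all genes did so. The 4 scopolamine values all lay below the 4 sham values for 2 genes, Rps23 and Rps7, where 1.95% of all genes showed this, and the reverse held for 0 genes, where 1.92% of all genes showed it. Limma-voom likewise gave 0 genes, and DESeq2 gave 1 of the ribosomal protein genes, Rps3a1 (adjusted p = 0.0976), where it called 0.342% of 14307 genes lower and 193 genes in all. DESeq2 gave no p-value for Rps3a2 and Rps3a3, so these could not be called there.

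This displacement depended on single libraries. Without scopolamine replicate 3 the median was -0.099, with 68 genes below 0 and 20 above, and without sham replicate 4 it was -0.15. Leaving out any of the other 6 libraries gave medians from -0.22 to -0.32. Within the M series alone the median was -0.18 and within the N series alone -0.24, each with at least 1 group of a single library.

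**Figure D2:**
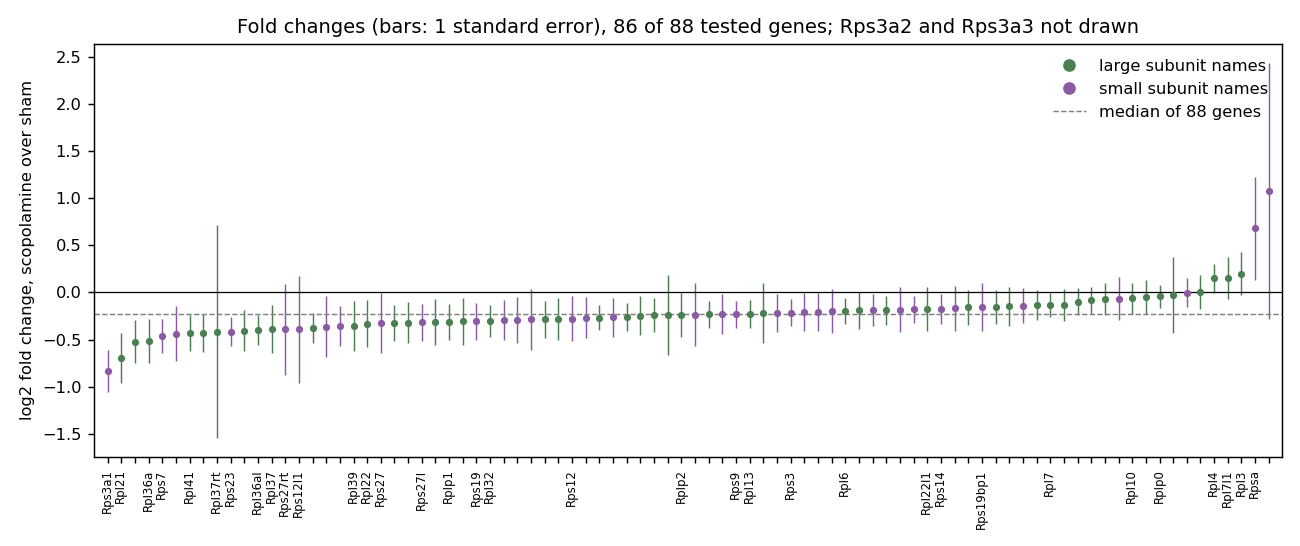
Log2 fold change of scopolamine over sham with 1 standard error (edgeR), ordered, for 86 of the 88 tested genes, some of them labelled by name, with the median of all 88 as a dashed line. Most points lie between -0.5 and 0 with bars of similar size, Rps3a1 and Rpl21 stand at the low end, and the wide bars at Rps2, Rpl37rt and Rpsa belong to genes with near-identical copies; Rps3a2 (1.88) and Rps3a3 (2.03) are not drawn.

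The smallest p among lower genes was that of Rps3a1 (chr3:86137940-86142702, GRCm38), a protein on the solvent side of the small subunit near the mRNA exit. Its levels were 315, 305, 243 and 307 CPM in the scopolamine libraries and 308, 507, 688 and 583 CPM in the sham libraries. All 4 scopolamine libraries and sham replicate 1 lay near one level, and the other 3 sham libraries lay well above it, so the groups overlapped at sham replicate 1 (log2 fold change -0.83, SE 0.22, edgeR adjusted p = 0.812; exact permutation p = 0.0571, two-sided, smallest possible 0.0286). Rps23 (chr13:90922958-90924950), a protein of the decoding centre, stood at 152, 150.3, 128 and 164 CPM in the scopolamine libraries and 198, 173, 242 and 179 CPM in the sham libraries. These groups did not overlap (log2 fold change -0.41, SE 0.16, edgeR adjusted p = 0.812; exact permutation p = 0.0286). For Rpl21 (chr5:146832890-146837032), a large subunit protein, the levels were 161, 138, 98.1 and 144 CPM in the scopolamine libraries and 144, 249, 164 and 319.6 CPM in the sham libraries. Sham replicates 2 and 4 were high, sham replicate 1 lay among the scopolamine libraries and sham replicate 3 just above them (log2 fold change -0.69, SE 0.26, edgeR adjusted p = 0.812). Rps7 (chr12:28630854-28635953), a small subunit protein with a part in pre-rRNA processing, had 303, 445, 311 and 448 CPM in the scopolamine libraries and 461, 459, 635 and 519 CPM in the sham libraries. Its groups were separated by a narrow gap between scopolamine replicate 4 and sham replicate 2 (log2 fold change -0.46, SE 0.18, edgeR adjusted p = 0.812; exact permutation p = 0.0286). Rpl36al (chr12:69182731-69184083), an autosomal paralogue of the X-linked Rpl36a, had 436, 388, 292 and 399 CPM in the scopolamine libraries and 509.6, 417, 503 and 569 CPM in the sham libraries. Only sham replicate 2 fell within the scopolamine range (log2 fold change -0.40, SE 0.16, edgeR adjusted p = 0.812).

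Among genes with a fold change above 0, the smallest p belonged to Rps3a3, Rpsa, Rps3a2, Rpl4 and Rpl3. Rpl4, a large subunit protein that lines the peptide exit tunnel, was at 522 ± 98.4 CPM with scopolamine against 471 ± 25.9 CPM in sham (SD, n = 4 each) (log2 fold change 0.15, SE 0.16, edgeR adjusted p = 0.903). Rpl3, which reaches towards the peptidyl transferase centre, was read at 561, 517, 285 and 469 CPM in the scopolamine libraries and 373, 345, 542 and 339 CPM in the sham libraries. Scopolamine replicate 3 was the lowest and scopolamine replicate 1 the highest of the 8, so the groups overlapped over their whole range (log2 fold change 0.20, SE 0.23, edgeR adjusted p = 0.912).

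Several of these values involve genes with near-identical copies elsewhere in the genome. Reads had been assigned to transcripts by kallisto, which matches words of 31 bases. Which copies were in its index depends on the annotation release, which is not given in the sources used here, and so does the division of reads between a gene and its copies. All 31-base words of the coding sequence also occurred in another annotated gene for 35 of the 93 genes. A copy was defined as a pseudogene, single-exon gene or other member that holds at least 50% of a gene's coding words. This grouped the 93 genes and their copies into 87 families, 69 of which had at least 1 copy. In 6 families the parent held under 50% of the counts: Rpl5, Rpl12, Rps12, Rpl27, Rps2 and Rpl27a, which, like Rpl14 and the copies named here, were picked out after their values were seen. Rpl5, which carries 5S rRNA into the large subunit and binds MDM2, had only 207, 239, 76 and 264 counts with scopolamine and 362, 563, 346 and 356 counts in sham. A single processed copy, Gm15500 (chr7:114705217-114706235), whose 891 aligned bases are identical to the Rpl5 coding sequence, had 3620, 4153, 1728 and 4256 counts with scopolamine and 5036, 6654, 8200 and 6264 counts in sham. Likewise Rpl12, part of the stalk base, had 3881 counts over all libraries, and Gm10275, identical over 495 coding bases, had 27496. For these 2 parents the row of the gene table therefore holds a small part of the reads that match their coding sequence, in every library.

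Other families divided their counts differently from library to library. Rps2 (chr17:24718116-24721929), a small subunit protein near the mRNA entry, had 8743, 13464, 5104 and 96 counts with scopolamine and 6915, 16633, 353 and 112 counts in sham. Its copy Rps2-ps10, which differs from the Rps2 coding sequence at 5 of 879 bases, had 86, 57, 33 and 14092 counts with scopolamine and 7487, 833, 20721 and 17977 counts in sham. Scopolamine replicate 4 and sham replicates 3 and 4 had almost all counts on the copy, sham replicate 1 had similar numbers on both, and the other 4 libraries had most on Rps2 itself. The row of Rps2 had a log2 fold change of 1.08 with an SE of 1.36, and the family total had 0.050 with an SE of 0.20. Family totals were 446, 638, 364 and 675 CPM with scopolamine and 549, 427, 528 and 544 CPM in sham, with overlapping groups.

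The coding sequence of Rps3a1 is shared with Rps3a2 (chr14:88123017-88123808) and Rps3a3 (chr13:108670603-108671397), which are processed copies that the symbol rule counts as genes of their own. Bases 526 to 645 of the Rps3a1 coding sequence, counted from 1 at the start codon, are shown with the aligned stretch of both copies because this is the 120-base window in which the 3 differ most; capitals mark the 3 positions at which they are not all the same.

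Rps3a1: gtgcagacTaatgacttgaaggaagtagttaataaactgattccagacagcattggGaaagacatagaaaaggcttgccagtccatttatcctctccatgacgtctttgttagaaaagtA
Rps3a2: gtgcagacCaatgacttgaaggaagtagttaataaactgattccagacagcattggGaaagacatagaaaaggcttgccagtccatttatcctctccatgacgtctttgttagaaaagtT
Rps3a3: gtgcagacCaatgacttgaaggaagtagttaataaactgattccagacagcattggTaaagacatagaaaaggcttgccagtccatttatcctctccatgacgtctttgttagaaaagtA

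Over the whole coding sequence Rps3a2 differs from Rps3a1 at 4 of 792 bases and Rps3a3 at 9 of 792. Rps3a2 had 2723, 2596, 1229 and 2340 counts with scopolamine and 3266, 4, 11 and 14 counts in sham. Rps3a3 had 942, 876, 549 and 880 counts with scopolamine and 1059, 14, 34 and 6 counts in sham. The 5 libraries with high counts on both copies (all 4 of scopolamine and sham replicate 1) were the 5 with low Rps3a1, and sham replicates 2, 3 and 4 had at most 34 counts on either copy. The log2 fold changes of the copies were 1.88 for Rps3a2 (edgeR adjusted p = 0.884) and 2.03 for Rps3a3 (edgeR adjusted p = 0.851). All 4 M series libraries were high on both copies, and within the M series Rps3a2 had a log2 fold change of -0.10. Of the N series libraries, scopolamine replicate 4 was high (2340 and 880 counts) and the 3 sham libraries were low, and within that series Rps3a2 had a log2 fold change of 8.73, with a single scopolamine library. Sham replicate 1 is the only sham library of the M series and the only sham library with more than 34 counts on either copy. Leaving it out therefore fixes a large difference (log2 fold changes of 8.75 and 6.51, edgeR adjusted p = 1.2e-04 and 0.0038), from which nothing is read. With all copies added, the Rps3a family stood at 499.7, 469, 369 and 459 CPM with scopolamine and 472, 508, 689 and 584 CPM in sham. The family mean was 449 ± 56.2 CPM with scopolamine against 563 ± 95.9 CPM in sham (SD, n = 4 each), with overlapping groups (log2 fold change -0.33, SE 0.16, edgeR adjusted p = 0.807), and the DESeq2 adjusted p went from 0.0976 for the Rps3a1 row to 0.535 for the family.

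Rpsa, the small subunit protein also known as the laminin receptor, and Rpl14, a large subunit protein, divided their counts by mouse series. Rpsa (chr9:120127689-120132369) had 479, 532, 354 and 128 CPM in the scopolamine libraries and 509, 216, 107 and 99.4 CPM in the sham libraries. The 4 M series libraries lay at 354 CPM or higher and the 4 N series libraries at 216 CPM or lower, and the row's log2 fold change of 0.68 (SE 0.55) turned to -0.15 with the series as a covariate. Its copy Rpsa-ps10 (chr3:150072658-150073542), which differs at 6 of 885 coding bases, had 90, 6, 2 and 5768 counts with scopolamine and 61, 4279, 8202 and 7797 counts in sham. Bases 100 to 219 of the coding sequence are shown, with capitals at the 2 positions that differ.

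Rpsa: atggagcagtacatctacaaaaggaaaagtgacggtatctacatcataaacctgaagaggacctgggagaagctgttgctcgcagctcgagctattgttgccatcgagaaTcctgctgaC
Rpsa-ps10: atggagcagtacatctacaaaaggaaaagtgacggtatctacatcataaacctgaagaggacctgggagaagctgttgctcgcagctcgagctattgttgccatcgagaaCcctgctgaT

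For Rpl14 (chr9:120571444-120574654), the copy Rpl14-ps1 (chr7:45324965-45325617) differs at 4 of 648 aligned bases and had 31, 7, 24 and 3231 counts with scopolamine and 4, 2868, 6582 and 4371 counts in sham, which again puts the 4 N series libraries above the 4 M series libraries. What the 2 series stand for is not given in the labels, and the genotype of the animals at these loci was not tested. The window of bases 304 to 423, with 2 differing positions in capitals, is the following.

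Rpl14: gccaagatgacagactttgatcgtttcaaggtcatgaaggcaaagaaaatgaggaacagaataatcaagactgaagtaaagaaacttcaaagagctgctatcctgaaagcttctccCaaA
Rpl14-ps1: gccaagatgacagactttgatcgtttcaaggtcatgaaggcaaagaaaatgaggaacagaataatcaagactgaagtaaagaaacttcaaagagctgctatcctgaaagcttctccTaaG

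With copies added, Rpl14 was read at 560.1, 464, 461 and 499 CPM with scopolamine and 579.9, 565, 536 and 569.7 CPM in sham; the SD over 8 libraries went from 0.26 for its row to 0.13 for the family on the log2 scale. For Rpl21 the split followed neither the treatment nor the series. Its copy Gm10163 (chr9:88390837-88391317) differs at 2 of 480 bases, one of which is the capital in the window of bases 277 to 336.

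Rpl21: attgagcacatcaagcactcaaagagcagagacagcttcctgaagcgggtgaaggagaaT
Gm10163: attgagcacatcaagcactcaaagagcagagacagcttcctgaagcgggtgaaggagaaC

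Gm10163 had 1683, 1559, 667 and 1697 counts with scopolamine and 2395, 17, 3457 and 46 counts in sham, so it was nearly absent in sham replicates 2 and 4, the 2 libraries with high Rpl21. The Rpl21 family as a whole, with 18 copies, stood at 234 ± 50.5 CPM with scopolamine against 281 ± 30.4 CPM in sham (SD, n = 4 each) (log2 fold change -0.27, SE 0.18, edgeR adjusted p = 0.846), a smaller difference than the -0.69 of the row. The same was seen for Rps7, whose copy Gm6472 had 2864 and 1436 counts in scopolamine replicates 1 and 3 and at most 90 in any other library. The Rps7 family had a log2 fold change of -0.25 (SE 0.14, edgeR adjusted p = 0.812) against -0.46 for the row, and its groups still did not overlap. Rpl3 turned from 0.20 for the row to -0.061 for the family, its copy Rpl3-ps1 having 249, 9, 1644 and 18 counts with scopolamine and 3200, 7384, 5 and 4860 counts in sham. Rps23 stayed at -0.41 (edgeR adjusted p of the family = 0.807), although 7 copies held nearly as many counts as the parent.

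**Figure D3:**
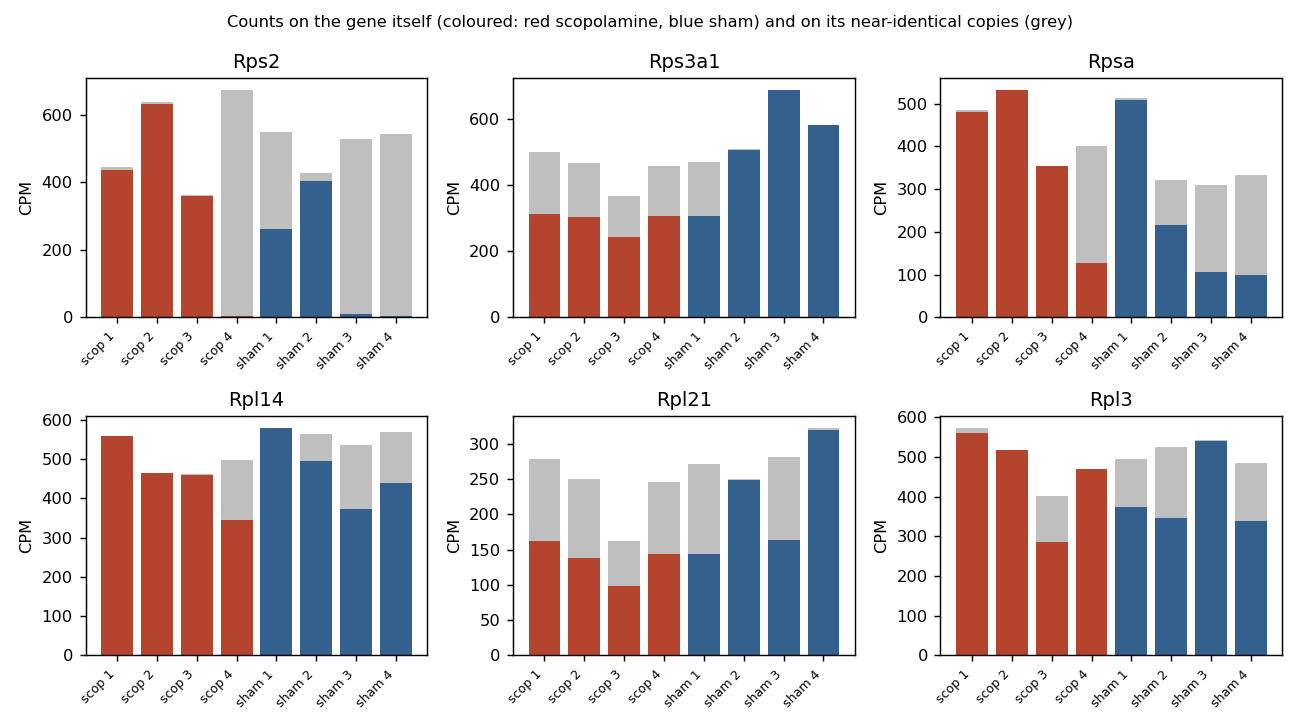
CPM on the gene's own row (red, scopolamine; blue, sham) and on its near-identical copies (grey) in each of 8 libraries, for Rps2, Rps3a1, Rpsa, Rpl14, Rpl21 and Rpl3. The height of the whole bar varies less between libraries than the coloured part; for Rps2, nearly the whole bar is grey in scopolamine replicate 4 and sham replicates 3 and 4.

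With copies added to their parents, 83 families could be tested. In this fit 0 of 83 had an adjusted p under 0.1, as did 0% of all 12799 genes (smallest 0.807 over the families), and DESeq2 also called 0 of them (0.311% of all genes lower). The log2 fold change was below 0 for 79 of 83 families (51% of all genes) with a median of -0.24, and the range narrowed to between -0.52 and 0.26. The 4 families above 0 were Rpl4, Rpl7l1, Rps2 and Rpsa. At an unadjusted p under 0.05, 6 families were lower (2.65% of all genes) and 0 higher: Rps23, Rpl36al, Rpl24, Rpl30, Rpl41 and Rpl36a. Groups that did not overlap, with scopolamine lower, were again found for 2 families, Rps23 and Rps7 (1.96% of all genes). For 33 of the 69 families with at least 1 copy, the spread over the 8 libraries was smaller than for the parent's own row. In the rest it was not smaller, and for some it was clearly larger. The SD of log2 CPM went from 0.32 to 0.42 for Rpl27 and from 0.12 to 0.23 for Rpl27a.

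**Figure D4:**
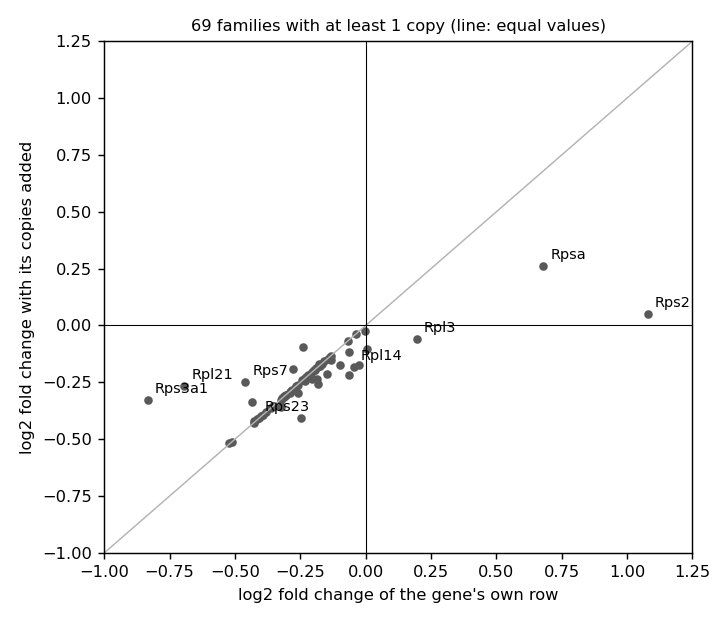
Log2 fold change (scopolamine over sham, edgeR) of the gene's own row, on the horizontal axis, against that of the gene with its copies added, on the vertical axis, for the 69 families with at least 1 copy; the line marks equal values. Most families sit on the line, while Rps3a1 (-0.83 to -0.33), Rpl21 (-0.69 to -0.27), Rpsa (0.68 to 0.26) and Rps2 (1.08 to 0.050) move towards 0.

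The most abundant genes were little affected by copies. Among them were Rpl13, Rpl41 and Rplp0 of the large subunit and Rps9, Rps14, Rps3 and Rps19 of the small subunit. Rpl13 (chr8:123102350-123105244), whose levels were 1518, 1363, 1079 and 1272 CPM in the scopolamine libraries and 1576, 1258, 1599.6 and 1689 CPM in the sham libraries, had overlapping groups (log2 fold change -0.23, SE 0.15, edgeR adjusted p = 0.851). Rpl41 (chr10:128548114-128549305), the shortest of all with a coding length of 75 bases, had 1419, 1271, 821 and 1123 CPM in the scopolamine libraries and 1625, 1293, 1389 and 1921 CPM in the sham libraries. Sham replicate 4 was the highest and scopolamine replicate 3 the lowest, with overlap between the rest (log2 fold change -0.43, SE 0.19, edgeR adjusted p = 0.812). Rps9, a protein needed for accurate decoding, was at 666 ± 83.5 CPM with scopolamine against 781 ± 84.9 CPM in sham (SD, n = 4 each), Rps14, which lies at the mRNA exit, at 608 ± 104 CPM with scopolamine against 687 ± 78.3 CPM in sham (SD, n = 4 each), and Rps3, which lies at the mRNA entry, at 597 ± 93.9 CPM with scopolamine against 692 ± 49.1 CPM in sham (SD, n = 4 each). Rps19, the gene most often mutated in Diamond-Blackfan anaemia, was at 554 ± 146 CPM with scopolamine against 685 ± 90.4 CPM in sham (SD, n = 4 each). The edgeR log2 fold changes of these 4 small subunit genes lay between -0.31 and -0.18, and each had overlapping groups.

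Rplp0, Rplp1 and Rplp2 form the stalk that recruits translation factors to the large subunit. Rplp0 (chr5:115559467-115563727), its anchor, had 1019, 1105, 951 and 1082 CPM in the scopolamine libraries and 1061, 952, 1174 and 1083 CPM in the sham libraries. Its groups overlapped throughout (log2 fold change -0.038, SE 0.12, edgeR adjusted p = 0.983). Rplp1 and Rplp2, the short acidic partners bound to it, varied more. Rplp1 stood at 406, 374, 229 and 324 CPM in the scopolamine libraries and 401, 353, 416 and 487 CPM in the sham libraries. Rplp2 stood at 346, 326, 163 and 272 CPM in the scopolamine libraries and 319, 269, 296 and 419.7 CPM in the sham libraries. Both were lowest in scopolamine replicate 3 and highest in sham replicate 4, with log2 fold changes of -0.31 (SE 0.19) and -0.24 (SE 0.24).

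Some ribosomal proteins have a second gene with tissue-restricted expression. Rpl10l and Rpl39l, autosomal relatives of X-linked genes that are known from the testis, had 0 counts in all 8 libraries, which allows at most 0.209 CPM in the shallowest and 0.0724 CPM in the deepest library (3 counts). Rpl3l, known from striated muscle, had 6, 0, 0 and 9 counts with scopolamine and 6, 0, 0 and 5 counts in sham. Their partners were well expressed, with Rpl10 at 515 ± 77.5 CPM with scopolamine against 538 ± 93.7 CPM in sham (SD, n = 4 each), Rpl39 at 106 ± 36.8 CPM with scopolamine against 135 ± 25.2 CPM in sham (SD, n = 4 each) and Rpl3 as given above. Other pairs were expressed together. Rps27l, which is induced by p53, had 247, 239, 142 and 223 CPM in the scopolamine libraries and 270.2, 216, 262 and 310.5 CPM in the sham libraries. Rps27 had 457, 376, 153 and 245 CPM in the scopolamine libraries and 311, 352, 332 and 547 CPM in the sham libraries. Per kilobase of transcript, Rps27 stood at 892 CPM and Rps27l at 426 CPM with scopolamine, and at 1117 CPM and 530.5 CPM in sham. The 2 coding sequences are identical at only 76.2% of 252 bases, as shown for bases 4 to 63 with differing positions in capitals, so that no copy rule joined them.

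Rps27: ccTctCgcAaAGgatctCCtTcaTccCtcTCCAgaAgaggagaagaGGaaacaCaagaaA
Rps27l: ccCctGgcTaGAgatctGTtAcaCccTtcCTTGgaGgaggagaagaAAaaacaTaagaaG

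The log2 fold change was -0.32 for both (SE 0.31 for Rps27 and 0.19 for Rps27l). Rps27rt, a single-exon gene whose 252 coding bases are identical to Rps27, had 7.94 ± 2.65 CPM with scopolamine against 10.4 ± 3.55 CPM in sham (SD, n = 4 each). Rpl22l1, the paralogue of Rpl22, had 90.5, 83.0, 49.8 and 89.1 CPM in the scopolamine libraries and 86.0, 69.5, 81.0 and 117 CPM in the sham libraries. Rpl22 had 64.8, 69.3, 34.4 and 58.2 CPM in the scopolamine libraries and 68.7, 56.1, 68.0 and 92.4 CPM in the sham libraries. Per kilobase of transcript Rpl22l1 was at 141 CPM and Rpl22 at 119.5 CPM with scopolamine, and at 160.1 and 150.5 CPM in sham, so the paralogue was at least as abundant as Rpl22 in both groups. Rpl36al likewise exceeded Rpl36a, at 720.1 against 155 CPM per kilobase with scopolamine and 949.9 against 222 in sham. Rpl37rt, a processed copy with 290 of 291 bases identical to Rpl37, ranged from 0.918 to 36.5 CPM with overlapping groups, and Rps12l1, identical to Rps12 over 396 bases, had 47.2, 38.6, 4.03 and 23.2 CPM in the scopolamine libraries and 36.6, 31.4, 25.8 and 54.4 CPM in the sham libraries. Rps12 itself had 43.5, 36.4, 28.6 and 29.9 CPM in the scopolamine libraries and 40.5, 34.6, 56.7 and 36.0 CPM in the sham libraries. Rps19bp1 (56.4 ± 12.9 CPM with scopolamine against 62.9 ± 18.4 CPM in sham (SD, n = 4 each)) and Rpl7l1 (96.7 ± 30.1 CPM with scopolamine against 86.9 ± 11.8 CPM in sham (SD, n = 4 each)) differed between the groups by less than 1 SD.

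The displacement of single libraries was related to the length of the coding sequence. Across the 83 protein-coding genes tested, the deviation of a gene in scopolamine replicate 3 was lowest for short genes, with a median of -0.82 for 28 genes of 75 to 396 coding bases, -0.59 for 27 genes of 399 to 552 bases and -0.38 for 28 genes of 564 to 1257 bases. Spearman's rho between coding length and deviation was 0.69 in this library. Sham replicate 4 showed the opposite order, with medians of 0.54, 0.39 and 0.17 and a rho of -0.70. In the other 6 libraries rho lay between -0.39 and 0.43. The fold change between the groups had a rho of 0.59 with coding length. These are descriptions across genes that share the same 8 libraries. Short coding sequences outside the group behaved in the same direction. Over 647 other protein-coding genes within the length limits of the short class, the median deviation was -0.33 in scopolamine replicate 3 and 0.38 in sham replicate 4, and their median log2 fold change was -0.28. Over 5544 other genes within the full length range of the ribosomal protein genes, rho was 0.20 in scopolamine replicate 3 and -0.18 in sham replicate 4.

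**Figure D5:**
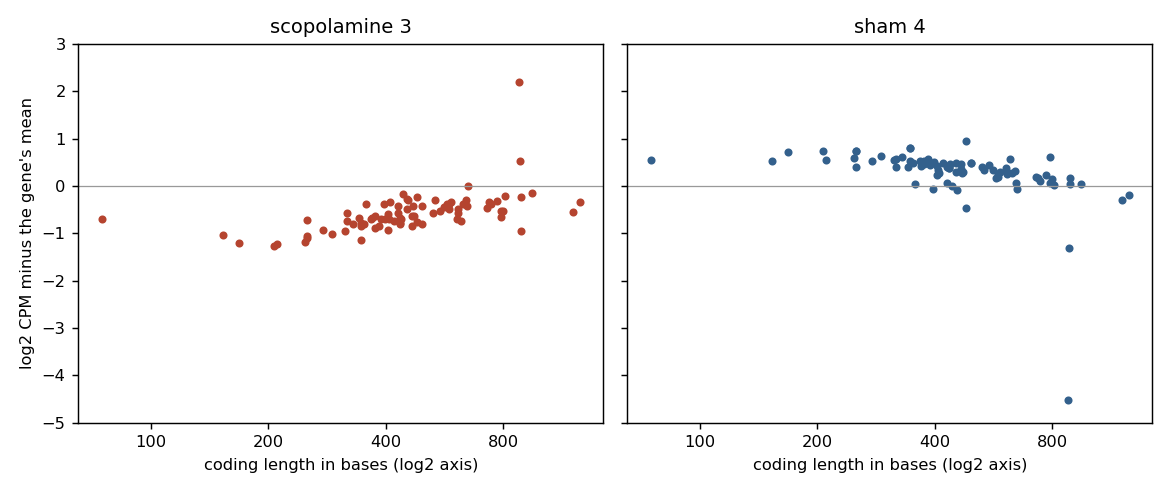
Log2 CPM minus the gene's mean over 8 libraries against coding length in bases (log2 axis) for 83 protein-coding ribosomal protein genes, in scopolamine replicate 3 (left) and sham replicate 4 (right). The points climb with length on the left (rho 0.69) and descend on the right (rho -0.70); the lowest point on the right is Rps2.

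Genes that work with the ribosomal proteins were compared in the same fit, and no gene of the lists that follow had an adjusted p under 0.1 in edgeR. Fau, which is made as a ubiquitin-like fusion with RPS30, was at 186 ± 22.1 CPM with scopolamine and 216 ± 21.6 CPM in sham. Translation factors and other TOP mRNAs were below 0 for 23 of 29 (median -0.14), with 2 lower and 1 higher at an unadjusted p under 0.05. The higher one was Eif3l, a subunit of initiation factor 3, at 194 ± 15.3 CPM with scopolamine and 141 ± 19.9 CPM in sham (log2 fold change 0.46, SE 0.15, edgeR adjusted p = 0.812). The lower ones were Naca, a subunit of the nascent polypeptide-associated complex, at 224 ± 24.2 CPM with scopolamine and 282 ± 11.3 CPM in sham (log2 fold change -0.33, SE 0.13), and Eef1b2, an exchange factor of elongation factor 1, at 152 ± 22.9 CPM with scopolamine and 194 ± 22.9 CPM in sham (log2 fold change -0.35, SE 0.16). All 3 had groups that did not overlap, as did 1.95% of all genes with scopolamine lower and 1.92% with it higher. Eef1a1, the elongation factor itself, was at 2252 ± 251 and 2425 ± 167 CPM (-0.11, SE 0.13). These 4 genes were picked out after their values were seen. Ribosome biogenesis factors were below 0 for 53 of 85 (median -0.090), with 4 lower and 0 higher at an unadjusted p under 0.05 and non-overlapping groups for 5 lower and 1 higher. DESeq2 called 1 of them lower, Polr1e, a subunit of RNA polymerase I, at 6.97 ± 2.22 CPM with scopolamine and 15.3 ± 1.56 CPM in sham (DESeq2 adjusted p = 0.0269; edgeR log2 fold change -1.13, SE 0.40, adjusted p = 0.812). Regulators of ribosomal protein mRNAs, among them Larp1, Mtor and Myc, were below 0 for 16 of 32 (median -0.0097), with 0 lower and 1 higher at an unadjusted p under 0.05. Mitochondrial ribosomal proteins, which serve a separate ribosome, were below 0 for 60 of 78 (median -0.19), with 4 lower and 0 higher at an unadjusted p under 0.05, 2 with non-overlapping groups and 1 called lower by DESeq2. Mitochondrially encoded genes were below 0 for 13 of 13 (median -0.35), with 4 lower and 0 higher at an unadjusted p under 0.05. Each of these lists is to be read against all tested genes, of which 50.9% were below 0 with a median of -0.011, 2.66% were lower and 3.33% higher at an unadjusted p under 0.05, and 0.342% were called lower by DESeq2.

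Promoter sequences from RefSeq (GRCm38.p6, from 250 bases before to 50 bases after the start) were at hand for 68 of the 93 genes, with 80 windows in all. A pyrimidine word of the kind found in TOP mRNAs (CTTTT or CTTTC or CTCTT or CCTTT or CTTCC or CTTCT, on the sense strand, overlaps allowed, from 10 bases before to 15 after the annotated start) was present for 32 of the 68 genes (47.1%), against 18.3% of all 27025 genes with a window and 21.7% of 69 mitochondrial ribosomal protein genes. The word CCGGAAG, on either strand of the whole window, was present for 38.2% of the ribosomal protein genes, 37.7% of the mitochondrial ones and 9.93% of all genes; AAGATGGC for 8.82%, 17.4% and 3.19%; GGGCGG for 60.3%, 49.3% and 38.2%; and TATAAA, on the sense strand, for 10.3%, 5.80% and 9.77%. Windows of 30 bases before to 30 bases after the start are printed for 4 genes described above, Rps27, Rps9, Rplp2 and Rps23, as examples with such a word in capitals, and for Rplp0 as one without.

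Rps27 (chr3:90213619-90213678, minus strand): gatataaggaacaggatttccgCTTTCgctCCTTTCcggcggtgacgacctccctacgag
Rps9 (chr7:3704011-3704070, plus strand): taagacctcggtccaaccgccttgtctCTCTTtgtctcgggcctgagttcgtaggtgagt
Rplp2 (chr7:141447621-141447680, plus strand): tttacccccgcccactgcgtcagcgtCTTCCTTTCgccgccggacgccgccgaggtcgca
Rps23 (chr13:90923092-90923151, plus strand): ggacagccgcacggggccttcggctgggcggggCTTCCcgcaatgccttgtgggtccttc
Rplp0 (chr5:115559437-115559496, plus strand): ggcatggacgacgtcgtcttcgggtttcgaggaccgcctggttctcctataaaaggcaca

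A match is a description of letters around an annotated start, and the 5 genes printed had log2 fold changes from -0.41 to -0.038.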

How the data were processed

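Sorted jejunal cells of 4 scopolamine and 4 sham mice were profiled. Per the labels and the study's methods, total RNA (RIN of 9 or higher by the study's criterion) was amplified with the Clontech SMARTer Ultra Low v4 kit, libraries were made with Nextera XT, reads were converted with bcl2fastq 2.20 and pseudoaligned with kallisto 0.44.0 (build GRCm38; the annotation release is not given in the sources used here), and the authors deposited estimated counts per gene, summed over transcripts with tximport. Rounding changed 0 values. The ribosomal protein genes and the gene lists were chosen with earlier results of these data known.

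Counts were tested with edgeR 4.0.16 in R 4.3.3 (TMM, filterByExpr with its minimum of 10 counts, quasi-likelihood test, Benjamini-Hochberg over 12849 genes, threshold 0.1), with treatment as the only term; the study used DESeq2, run here as an alternative (1.42.0), and limma-voom (3.58.1) as another. CPM used TMM-scaled library sizes. Single genes also had a two-sided exact permutation test on log2 CPM (prior count 2, 70 assignments). The rule for named genes took the 4 most abundant per subunit, the 5 smallest p per direction, any call, Rplp0 to Rplp2, Rpsa and the paralogue pairs; some of the genes this takes are not reported here. Copies were found by 31-base words against GENCODE M21, and their addition to parents, like the split by mouse series, was chosen after seeing the data. The scripts were tested on counts simulated with the means, library sizes and dispersions of these libraries. At the threshold of 0.1, edgeR called 11 of 100 genes simulated with a log2 change of 1 and 50 of 100 with a change of 2. DESeq2 called 24 and 69 of them. Of 12649 genes simulated without a change, edgeR called 2 and DESeq2 70. A gene without a call is therefore not shown to be unchanged. Nothing in the labels says that the 8 libraries come from independent experiments beyond separate mice, so p-values measure the spread between these libraries. Small nucleolar RNA host genes (0 of 15 in the table) gave no value.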

Additional observations from a re-analysis of the deposited data

Results flagged for a closer look

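In groups of 4 libraries, the highest or lowest value was compared with its nearest neighbour by Dixon's test at the 95% level for 41 named genes and 4 measures of each library. Of 90 groups examined, 6 held a library set apart, and chance alone gives about 1 in 20.

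Rps3a1 in scopolamine replicate 3 was at 243 CPM, and the other scopolamine libraries were at 305 to 315 CPM. Rpl3 in sham replicate 3 was at 542 CPM, and the other sham libraries were at 339 to 373 CPM, while the copy Rpl3-ps1 had 5 counts there and 3200 to 7384 in the others. Rps3a2 in sham replicate 1 was at 124 CPM and Rps3a3 at 40.2 CPM, and the other sham libraries were at 0.418 CPM or lower and 0.843 CPM or lower. These 2 values lie within or near the range of the scopolamine libraries, 86.8 to 137 CPM and 38.8 to 47.2 CPM. Rpl37rt in sham replicate 4 was at 36.5 CPM, and the other sham libraries were at 2.06 to 5.73 CPM. Rpl32l in sham replicate 4 was at 1.20 CPM, and the other sham libraries were at 0.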

How the results depend on the processing

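Under 23 alternatives, 36 named genes and the summary values were recomputed. The median log2 fold change of the ribosomal protein genes stayed below 0 in all 23, from -0.32 without scopolamine replicate 1 to -0.099 without scopolamine replicate 3, while the median of all genes lay between -0.064 and 0.040. The share of counts differed by -0.47 to -0.096 percentage points when single libraries were left out. The number of genes with an adjusted p under 0.1, which was 0, became 193 with DESeq2, 9 without the 200 pg libraries and 5 with amplification cycles as a covariate, 2 within the M series and 3 within the N series, and ranged from 0 to 2 when 1 library was left out. For ribosomal protein genes it became 1 with DESeq2 (Rps3a1), 2 without the 200 pg libraries (Rps3a2 at 8.78 and Rps3a3 at 7.28), 1 within the N series (Rps3a2 at 8.73) and 0 to 2 when 1 library was left out, the 2 being Rps3a2 and Rps3a3 without sham replicate 1. Each of these settings that called the copies leaves out sham replicate 1, the only sham library with more than 34 counts on them. Limma-voom, other scalings, other filters, thinning to the smallest total and the added copies left both counts at 0. Within the M series sham, and within the N series scopolamine, is a single library assumed to vary like the others, so the calls within a series rest on 1 library in a group.

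Signs changed for 10 named genes. Rplp0 was at 0.0035 without the 200 pg libraries, 0.031 with cycles and 0.020 within the N series, and from -0.090 to 0.0092 with 1 library left out. Rpl10 was at 0.083 with the series as covariate, 0.16 within the M series, 0.0088 within the N series and from -0.16 to 0.043 with 1 library left out. Rpsa was at -0.15 with the series as covariate, -0.16 within M and -0.14 within N. Rps19bp1 was at 0.0016 with the series as covariate and 0.32 within M. Rpl7l1 was at -0.097 within M and from -0.078 to 0.27 with 1 library left out, and Rpl37rt at 1.03 within M and from -1.17 to 1.24. Within M, Rps27 was at 0.084 and Rps3a2 at -0.10. Rpl22l1 was at 0.0027 within N, and Rpl3 at -0.061 with copies added. The cause was not tested, except that for Rpl3 adding the copies itself gave the change. No paired analysis was possible because the labels give no replicate numbers and those used here only follow the order of the samples. For Rpl10l and Rpl39l, with 0 counts, depth limits what could be seen.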

Other observations

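Copies that took a steady part of their family's counts were found beside those that changed from library to library. Rpl27-ps3 had 58528 counts over all libraries and its parent Rpl27 had 22363, and Rpl15-ps3 had 39411 beside 65054 on Rpl15. Rps23-ps1 had 37447 counts beside 39575 on Rps23. In each of the 3 the copy had counts in every library, with 1208 or more per library. The copies of Rps13 and Rps18 varied between libraries, with the parent above 50% of the family's counts in each. Rps13-ps1 had 2342 counts in scopolamine replicate 2 and 3528 in sham replicate 1, and 4 to 90 counts in the other 6 libraries. Gm11361, a copy of Rps18, had 7, 1527, 7 and 900 counts in scopolamine replicates 1 to 4 and 1666, 49, 2135 and 2774 in sham replicates 1 to 4. The genes named here were picked out after their values were seen.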
